A study of Mus musculus with 4 samples.

Results

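Glycolysis splits glucose into pyruvate in the cytosol, and lactate dehydrogenase can then turn the pyruvate into lactate. Several steps can be run by alternative enzymes from separate genes, so a cell can keep a step going while it exchanges the isoform. Mouse embryonic stem cells are known for a high rate of glycolysis, and the hypoxia factor HIF1A and MYC are known activators of many of these genes. The genes described here were 10 taken by symbol: the hexokinases Hk1 and Hk2, Gpi1, the phosphofructokinases Pfkl, Pfkm and Pfkp, Aldoa, Pgk1, Eno1 and Ldha. All 10 were among the 24428 symbols of the count files, and all 10 passed the filter on low counts, as did 14479 genes in all.

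The samples were 4 poly(A) RNA libraries from mouse embryonic stem cells (129SvEv background, passage 15 to 20), kept in medium with 15% serum and the cytokine LIF. In every library the cells carried floxed Smarca4, which encodes the BRG1 ATPase of the mSWI/SNF (BAF) chromatin remodelers, together with CreER, a recombinase that tamoxifen switches on. The tamoxifen group (n = 2) received 0.8 uM 4-hydroxytamoxifen and the ethanol group (n = 2) the solvent, for 48 h, with collection at 72 h. No cells lacking the floxed alleles were analysed here, so gene loss, drug and Cre activity cannot be told apart. Nothing in the labels says that replicates came from separate cultures; each p-value then reflects only how far these libraries differ, which may be technical.

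Smarca4 had 968 and 1226 reads in the tamoxifen libraries, against 5042 and 10649 in the ethanol libraries, and fell by 2.43 ± 0.17 on the log2 scale (SE; edgeR quasi-likelihood test, adjusted p = 1.08e-05). Reads in genes ranged from 13458463 to 17191445 with tamoxifen and from 16130823 to 27086142 with ethanol. The 14 stem cell markers were all detected and summed to 6612 and 6254 CPM (read counts scaled to library depth with TMM factors) with tamoxifen and 6528 and 6428 CPM with ethanol, with 2 of 14 higher and 2 lower (3 and 3 with the GC correction described below). Of 17 tested fibroblast markers, which feeder cells would carry, 11 were higher with tamoxifen and none lower (12 higher and 0 lower at an unadjusted p under 0.05; 11 and 0 by DESeq2; 11 and 0 with GC correction). Over all tested genes 21.5% were higher, and 9.81% with GC correction. The fibroblast markers summed to 3311 and 3336 CPM with tamoxifen, against 2788 and 2401 with ethanol. Of the 18 listed, Lum was the 1 that had no read in a library (ethanol replicate 2). Of the 14 primitive endoderm markers, 5 were higher and 1 lower (1 and 1 with GC correction), with sums of 3996 and 3852 CPM with tamoxifen, against 3519 and 3261 CPM with ethanol. The part of other cell types in the results below was not tested. In bulk RNA, fewer cells of a type and less RNA per cell cannot be told apart.

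Across all genes, log2 fold changes followed the GC content of the transcript (Spearman correlation 0.65 across genes, which are not independent replicates). Each result is therefore also given from a fit in which the GC trend of each library was removed, wherever that ended a call, turned a direction or moved a value by over 1.5 times. A gene is called higher or lower where its Benjamini-Hochberg adjusted p in edgeR was under 0.05. By that rule 44.5% of all tested genes were called (21.5% higher and 22.9% lower), and 19.6% with GC correction (9.81% higher and 9.78% lower).

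The promoters of 4 genes are shown. Pfkl and Pfkp are the pair of phosphofructokinase genes whose levels moved apart. Pgk1 and Ldha are known HIF1A targets, of which the 10 enzymes hold others. They run from 250 bases before to 50 bases after the annotated start, 5′ to 3′ along the gene, and come from RefSeq on GRCm38.p6. Capitals mark ACGTG or, on the other strand, CACGT, the core of the hypoxia response element. The windows are chr10:78009758-78010057 (minus strand) for Pfkl, chr13:6648722-6649021 (minus strand) for Pfkp, chrX:106186850-106187149 (plus strand) for Pgk1 and chr7:46845554-46845853 (plus strand), the upstream one of the pair listed, for Ldha.
Pfkl: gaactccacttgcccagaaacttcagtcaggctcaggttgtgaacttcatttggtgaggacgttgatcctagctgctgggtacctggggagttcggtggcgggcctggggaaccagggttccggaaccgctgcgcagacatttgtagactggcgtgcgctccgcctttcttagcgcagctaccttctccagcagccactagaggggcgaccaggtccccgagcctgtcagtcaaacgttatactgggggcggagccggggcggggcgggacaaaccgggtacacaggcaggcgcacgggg
Pfkp: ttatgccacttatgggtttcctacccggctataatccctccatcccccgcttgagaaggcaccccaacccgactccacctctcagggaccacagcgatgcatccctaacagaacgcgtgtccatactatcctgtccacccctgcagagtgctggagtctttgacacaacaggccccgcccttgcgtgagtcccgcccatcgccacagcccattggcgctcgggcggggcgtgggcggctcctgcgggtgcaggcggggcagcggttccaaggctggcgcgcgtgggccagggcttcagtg
Pgk1: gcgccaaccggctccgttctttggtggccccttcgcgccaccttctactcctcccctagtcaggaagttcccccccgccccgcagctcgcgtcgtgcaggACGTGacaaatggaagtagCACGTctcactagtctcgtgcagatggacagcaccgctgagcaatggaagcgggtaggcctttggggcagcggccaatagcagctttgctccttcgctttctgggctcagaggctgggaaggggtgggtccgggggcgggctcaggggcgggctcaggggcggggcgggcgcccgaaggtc
Ldha: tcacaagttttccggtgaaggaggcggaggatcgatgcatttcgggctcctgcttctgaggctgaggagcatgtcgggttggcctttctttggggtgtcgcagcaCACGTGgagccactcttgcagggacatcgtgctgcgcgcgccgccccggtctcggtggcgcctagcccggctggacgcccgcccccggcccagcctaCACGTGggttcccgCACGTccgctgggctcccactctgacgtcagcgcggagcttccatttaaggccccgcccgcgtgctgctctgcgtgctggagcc
The core stood at 2 places in the Pgk1 window and in 5 matches in the Ldha window, where 2 copies of the E-box CACGTG, the motif of MYC and related factors, each count on both strands. Neither phosphofructokinase window shown held it. All 4 windows held the GC box GGGCGG or its reverse CCGCCC (3 matches for Pfkl, 4 for Pfkp, 5 for Pgk1 and 3 for Ldha). Over all 32851 promoter windows of the table, 19.6% held the hypoxia core, 7.15% the E-box and 35.7% the GC box. Of the 19 windows of the 10 enzymes, 8 windows held the core, and they belonged to 6 genes: Hk1, Hk2, Pfkm, Aldoa, Pgk1 and Ldha. The Aldoa windows with the core overlap and hold the same site, so the windows are not independent. The other Ldha window held no core. The share over all windows is per window, and none was computed per gene. Motif counts are matches of letters and do not show binding.

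Over the whole set, 3 of the 10 enzymes were higher with tamoxifen (Gpi1, Pfkl and Eno1) and 2 lower (Pfkp and Pgk1), shares near those of all genes, and the remaining 5 were not called. The median log2 fold change was 0.11, against -0.01 over all tested genes. With GC correction none was higher (1 at an unadjusted p under 0.05; edgeR was the only tool run with this correction) and 3 were lower (Pfkp, Pgk1 and Ldha), with a median of -0.23 against 0.01 over all genes. Together the 10 genes took 0.577 and 0.553% of the unscaled reads in genes with tamoxifen, against 0.5 and 0.496% with ethanol. Scaled with TMM factors, the sums were closer, at 5494 and 5327 CPM with tamoxifen, against 5256 and 5155 CPM with ethanol. Aldoa, which was not called, gave 2831 and 2597 CPM of this with tamoxifen, against 2427 and 2217 CPM with ethanol. The sum was not tested. The tamoxifen libraries lay on 1 side of the ethanol libraries for 8 of the 10 genes, all but Hk2 and Pfkm, against 74.0% of all tested genes. Without tamoxifen replicate 1, 2 enzymes were called higher and 1 lower, and without tamoxifen replicate 2, 1 higher and 1 lower.

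**Figure D1:**
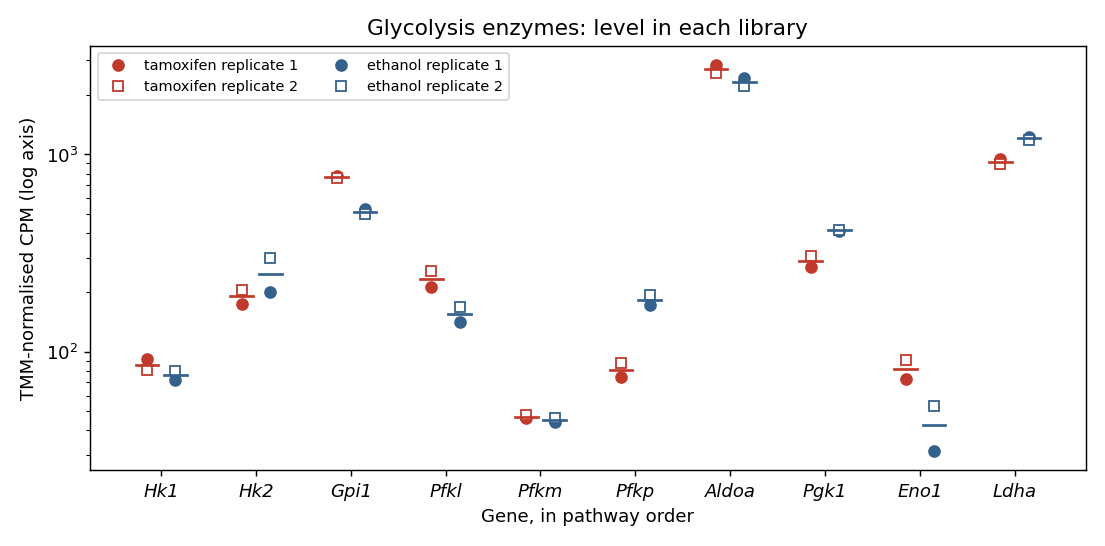
Level of each glycolysis enzyme gene in each library, as TMM-normalised CPM on a log axis, in pathway order; tamoxifen is red and left of ethanol in blue, filled circles are replicate 1, open squares replicate 2, and short lines are group means. Pfkp lies at 74.2 and 87.6 CPM with tamoxifen, below both ethanol libraries (173 and 195 CPM), while the Pfkm values of both groups lie between 44.2 and 47.7 CPM.

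Per kilobase of transcript, the order of levels from high to low with tamoxifen was Aldoa (1796 CPM per kb), Ldha (579), Gpi1 (266), Pgk1 (158), Pfkl (62.9), Eno1 (40.4), Hk2 (34.7), Hk1 (22.4), Pfkp (19.5) and Pfkm (16.3). With ethanol it was Aldoa (1537 CPM per kb), Ldha (759), Pgk1 (226), Gpi1 (178), Hk2 (45.2), Pfkp (44.4), Pfkl (41.4), Eno1 (21.0), Hk1 (19.8) and Pfkm (15.7). Pgk1 and Gpi1 exchanged places between the groups, and Pfkp moved from among the middle genes with ethanol to the end with tamoxifen, just above Pfkm. Neighbours such as Hk2, Pfkp and Pfkl with ethanol were too close in level for their order to be read beyond the spread of the libraries. Each level rests on 1 annotated transcript per gene, and reads may come from others. The place of Eno1 is not that of enolase 1 as a whole: its near-identical copy Eno1b, described below, stood at 813 CPM per kb with tamoxifen and 855 with ethanol, and reads of the pair cannot be told apart with confidence.

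Hexokinases trap glucose in the cell as glucose 6-phosphate, and neither gene passed the test. Hk1, the widely expressed form, had 91.9 and 80.6 CPM in the tamoxifen libraries, against 72.4 and 80.2 CPM in the ethanol libraries. The nearest values of the groups were separated by less than the gap between the replicates of either. The log2 fold change was 0.18 ± 0.15 (SE, edgeR adjusted p = 0.347), and the value was -0.14 with GC correction. Hk2, the form typical of rapidly growing cells, had 175 and 207 CPM with tamoxifen, against 201 and 298 CPM with ethanol. Its groups overlapped, and the ethanol replicates were farther apart than the group means (-0.38 ± 0.19, adjusted p = 0.125). Ethanol replicate 1 decided that outcome: without it the value was -0.64 and passed (edgeR adjusted p = 0.000458), and without ethanol replicate 2 it was -0.06. Summed over both genes, hexokinase averaged 278 ± 14.6 CPM with tamoxifen and 326 ± 74.4 CPM with ethanol (SD, n = 2 each).

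Gpi1 encodes glucose phosphate isomerase, which turns glucose 6-phosphate into fructose 6-phosphate. It had 774 and 760.1 CPM in the tamoxifen libraries, against 528 and 500.3 CPM in the ethanol libraries. Both tamoxifen values lay well above both ethanol values, and replicates of a group were close. The gene rose 1.49-fold (log2 fold change 0.58 ± 0.15, SE; edgeR adjusted p = 0.00880), and the value was 0.39 and not called with GC correction (adjusted p = 0.0716). The call also ended without tamoxifen replicate 1 (0.56) and without tamoxifen replicate 2 (0.59), where the size hardly moved and the ethanol pair alone set the spread. In GENCODE, 1 processed pseudogene matches the Gpi1 transcript at 98.7% over 1046 bases. That copy is not among the counted symbols, so the Gpi1 count is uncertain.

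Phosphofructokinase commits sugar to glycolysis and is the main control point of the pathway; it acts as a tetramer that can mix the liver (Pfkl), muscle (Pfkm) and platelet (Pfkp) subunits. Here the isoforms went different ways. Pfkp had 74.2 and 87.6 CPM in the tamoxifen libraries, against 173 and 195 CPM in the ethanol libraries. Every tamoxifen value was under the lower ethanol value by a wide margin. Pfkp fell to 80.9 ± 9.5 CPM in tamoxifen cells, against 184 ± 16.1 CPM in ethanol cells (SD, n = 2 each), a log2 fold change of -1.19 ± 0.16 (SE; edgeR quasi-likelihood test, adjusted p = 0.000207). It was the only 1 of the 10 enzymes that stayed called in all 19 alternatives, between -1.31 and -0.94, and it was at -1.05 with GC correction (adjusted p = 0.000475).

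Pfkl had 214 and 256 CPM in the tamoxifen libraries, against 142 and 168 CPM in the ethanol libraries. The groups did not overlap, and in each of them replicate 2 was the higher. The gene rose 1.52-fold (log2 fold change 0.60 ± 0.16, SE; edgeR adjusted p = 0.00997). Its transcript is GC-rich (57.1%), and with GC correction the value was 0.15 and not called (adjusted p = 0.544); without tamoxifen replicate 2 it was 0.47 and not called (adjusted p = 0.135). The 2644 other genes within 2 percentage points of the GC content of Pfkl had a median log2 fold change of 0.49, close to its own. For Pfkp, at 48.9% GC, the 3022 such genes had a median of -0.13, far from its -1.19. Pfkm had 46.0 and 47.7 CPM with tamoxifen, against 44.2 and 46.1 CPM with ethanol, so the groups overlapped (0.05 ± 0.14, edgeR adjusted p = 0.787; -0.23 with GC correction, not called).

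Within a library the isoforms can be set against each other. Pfkp took 22.2 and 22.4% of the phosphofructokinase reads in the tamoxifen libraries (95% exact Clopper-Pearson intervals 21.0 to 23.4% and 21.4 to 23.4%), against 48.2 and 47.8% in the ethanol libraries (46.8 to 49.5% and 46.8 to 48.7%). Pfkl took 64.0 and 65.4% with tamoxifen, against 39.5 and 41.0% with ethanol. Pfkl thus held most of the reads in tamoxifen cells, while no isoform did in ethanol cells, where Pfkp had the largest share. The share of Pfkm was 13.8 and 12.2% with tamoxifen, against 12.3 and 11.3% with ethanol, and overlapped. Replicates differed far less than the groups, whose mean shares were 24.5 points apart for Pfkl and -25.7 points for Pfkp (tamoxifen minus ethanol). However, 2 libraries against 2 allow no two-sided exact permutation p below 0.333, and both gave 0.333. The intervals cover counting error only. The shares were not corrected for GC content, which differs between Pfkl (57.1%) and Pfkp (48.9%). With that correction the single genes were at 0.15 (Pfkl, not called) and -1.05 (Pfkp, called). Summed over the isoforms without GC correction, phosphofructokinase had 334 and 391 CPM with tamoxifen, against 359 and 409 CPM with ethanol. These uncorrected totals overlapped, while the uncorrected shares of Pfkl and Pfkp did not. The total was not tested, and it includes the rise of Pfkl, a call that GC correction ended. Whether the total was kept therefore cannot be read from this sum.

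**Figure D2:**
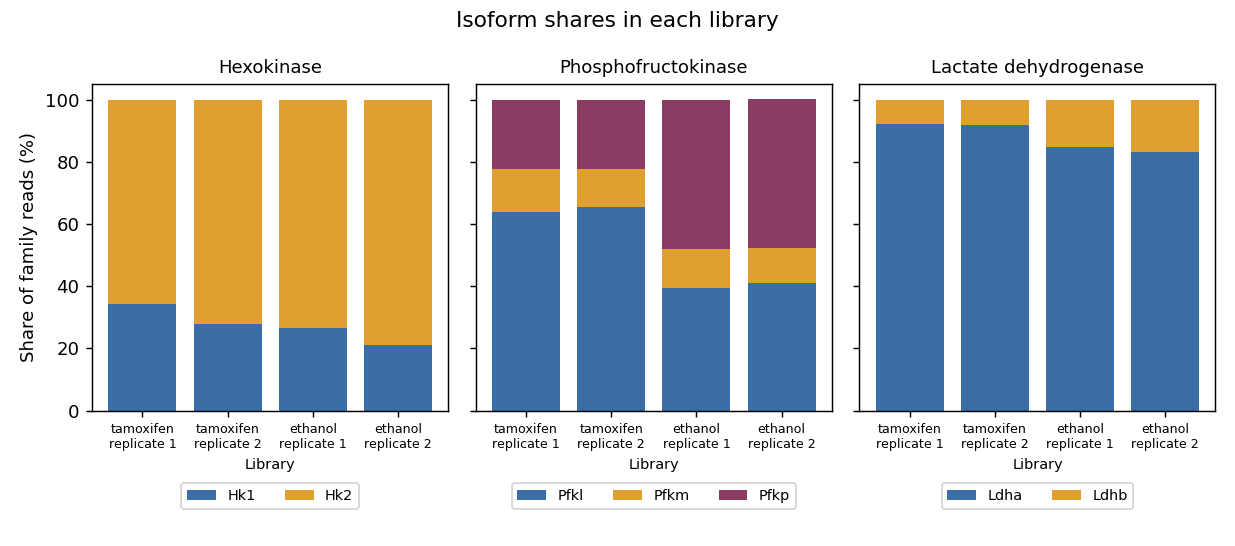
Share of the reads of each enzyme family taken by each isoform gene, in percent, in each library (tamoxifen left of ethanol; each bar is 1 library and adds up to the whole family). In the phosphofructokinase panel Pfkp takes 22.2 and 22.4% with tamoxifen and 48.2 and 47.8% with ethanol, and in the lactate dehydrogenase panel Ldhb takes 7.86 and 8.07% with tamoxifen and 15.3 and 17.0% with ethanol.

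Aldolase A, encoded by Aldoa, splits fructose 1,6-bisphosphate into triose phosphates and was the most abundant of the 10 transcripts. It had 2831 and 2597 CPM in the tamoxifen libraries, against 2427 and 2217 CPM in the ethanol libraries. The groups did not overlap, but the gap between their nearest values was smaller than that between the replicates of either group. The means were farther apart than the replicates, at 2714 CPM with tamoxifen and 2322 CPM with ethanol. The gene was not called (0.23 ± 0.16, edgeR adjusted p = 0.254), nor with GC correction (-0.23).

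Pgk1 encodes phosphoglycerate kinase, the first step of the pathway that makes ATP. It had 268 and 307 CPM in the tamoxifen libraries, against 411 and 414 CPM in the ethanol libraries, with no overlap and a nearly identical ethanol pair. It fell by 0.52 ± 0.15 on the log2 scale (SE; edgeR adjusted p = 0.0157), and with GC correction it was at -0.43, just inside the threshold (adjusted p = 0.0499). The call ended without tamoxifen replicate 1 (-0.43) and without tamoxifen replicate 2 (-0.62). In GENCODE, 4 processed pseudogenes match its transcript at 95% identity or more over at least 200 bases, and Pgk1-rs7 does so at 100% over 1255 bases. None of the 4 is among the counted symbols, so it cannot be seen how reads of the copies were treated, and the count is uncertain.

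Eno1, for enolase 1, makes phosphoenolpyruvate, the substrate of pyruvate kinase. Its row held 1031 and 1621 in the tamoxifen libraries, against 483 and 1393 reads in the ethanol libraries, or 72.9 and 90.8 CPM against 31.5 and 53.5 CPM. The groups did not overlap, although the ethanol replicates were far apart. The row was called higher, 1.92-fold (log2 fold change 0.94 ± 0.24, SE; edgeR adjusted p = 0.0110). It was at 0.46 and not called with GC correction (adjusted p = 0.314), and without ethanol replicate 1 it was at 0.62, still called.

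The call ended once the near-identical copy was counted in. Eno1b, a retrogene whose transcript matches that of Eno1 at 99.5% over 1652 of 2027 bases, held 20530 and 26064 reads in the tamoxifen libraries, against 24321 and 38482 in the ethanol libraries. Of the reads of the pair, the Eno1 row held only 4.78 and 5.86% with tamoxifen, against 1.95 and 3.49% with ethanol. The Eno1b row was not called (-0.07 ± 0.15, edgeR adjusted p = 0.724; -0.26 with GC correction, not called). Reads of genes this alike cannot be placed with confidence, so neither row measures its own gene alone. Summed before the fit, the pair had 1526 and 1551 CPM with tamoxifen, against 1616 and 1531 CPM with ethanol. These groups overlapped and the sum was not called (-0.03 ± 0.15, edgeR adjusted p = 0.878; chosen after seeing the data). Counted in this way, 2 of the 10 enzymes were called higher and 2 lower, and the median over the set was 0.01.

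**Figure D3:**
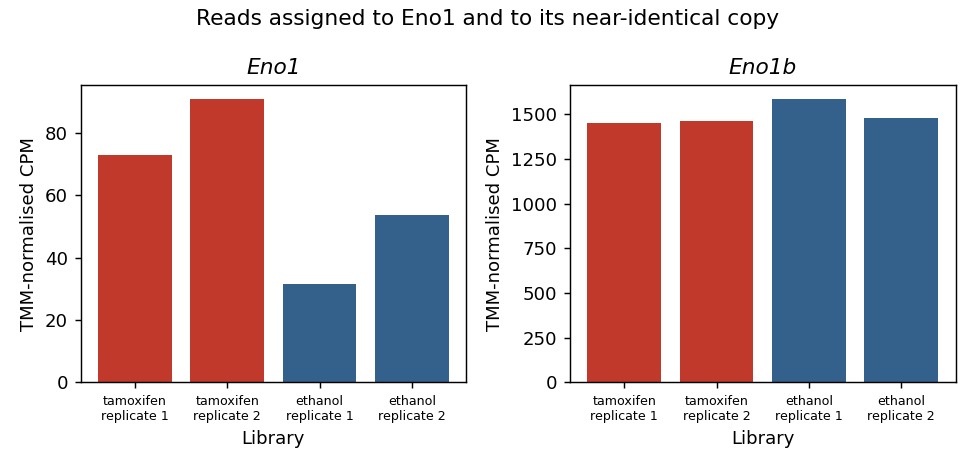
TMM-normalised CPM of the rows named Eno1 and Eno1b in each library (tamoxifen in red left of ethanol in blue; each bar is 1 library; the vertical axes differ and start at 0). The Eno1 row runs from 31.5 to 90.8 CPM and the row of its copy from 1453 to 1585 CPM.

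Ldha encodes the lactate dehydrogenase subunit that favours the making of lactate. It had 946 and 894 CPM in the tamoxifen libraries, against 1228 and 1183 CPM in the ethanol libraries. Both pairs of replicates were tight and did not overlap, yet the gene missed the threshold narrowly (-0.39 ± 0.15, edgeR adjusted p = 0.0526). It passed in 8 of the 19 alternatives, among them GC correction (-0.46, edgeR adjusted p = 0.0373), DESeq2 (adjusted p = 0.0270) and limma voom (adjusted p = 0.0435). In the other 11 it was not called, among them upper-quartile factors (-0.33, edgeR adjusted p = 0.0891) and total counts (-0.26, edgeR adjusted p = 0.175). Without tamoxifen replicate 1 it was at -0.43, without tamoxifen replicate 2 at -0.35 and without ethanol replicate 2 at -0.41. Over all alternatives it ran from -0.50 to -0.26. In GENCODE, 4 processed pseudogenes match its transcript at 95% or more, none of them counted here.

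Ldhb, which encodes the subunit that favours the use of lactate, is outside the 10 genes but completes the enzyme. It had 80.7 and 78.5 CPM in the tamoxifen libraries, against 223 and 243 CPM in the ethanol libraries. It fell by 1.55 ± 0.15 on the log2 scale (SE; edgeR adjusted p = 5.41e-05) and was called in every alternative. Ldha accordingly took 92.1 and 91.9% of the reads of both genes with tamoxifen, against 84.7 and 83.0% with ethanol (exact permutation p = 0.333, two-sided, the smallest this design allows). Their sum was 1027 and 973 CPM with tamoxifen, against 1451 and 1426 CPM with ethanol. The groups did not overlap in the total or in the makeup, while the phosphofructokinase totals, also without GC correction, overlapped. Libraries of the groups did not overlap for 74.0% of all tested genes either. The total was not tested, and Ldha, which made up most of it, was not called. In GENCODE, 1 processed pseudogene matches the Ldhb transcript at 98.0% over 1002 bases. That copy is not among the counted symbols, so the Ldhb count and these shares are uncertain.

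**Figure D4:**
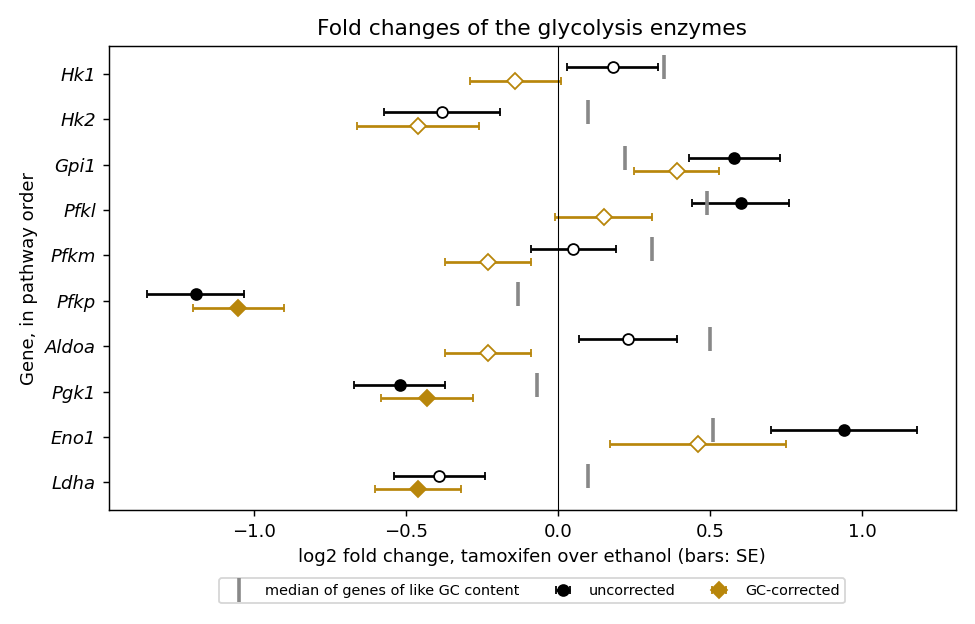
Log2 fold change of each enzyme gene, tamoxifen over ethanol, with its SE; circles are without and diamonds with GC correction, filled where the adjusted p was under 0.05, and grey ticks are the median of all tested genes within 2 percentage points of the gene's GC content. Pfkp, at -1.19 and -1.05, lies far to the left of the tick at -0.13, while Pfkl at 0.60 lies near its tick at 0.49.

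The other enzymes of the pathway, on a list of 19 genes chosen with earlier results of these data known, moved as unevenly. Of the 14 tested, 3 were higher and 3 lower in edgeR (1 and 4 in DESeq2), and the list had a median of 0.16 on the log2 scale. With GC correction 1 was higher (Hkdc1, at 1.01) and 3 lower, and the median was -0.07. Besides Ldhb, Hkdc1, which encodes a hexokinase-like protein, had 27.4 and 32.6 CPM with tamoxifen, against 12.1 and 11.7 CPM with ethanol (1.33 ± 0.17, SE; edgeR adjusted p = 0.000163). The neuronal enolase gene Eno2 was called higher (0.72; 0.43 and not called with GC correction, 0.59 and not called without tamoxifen replicate 2, 0.71 and not called in DESeq2) and the muscle enolase gene Eno3 lower (-0.63; not called without tamoxifen replicate 1, -0.60, tamoxifen replicate 2, -0.66, or ethanol replicate 2, -0.39). The abundant common steps were not called. Tpi1, for triose phosphate isomerase, was at 0.11 ± 0.16 (-0.08 with GC correction), and Pgam1, for phosphoglycerate mutase, at -0.18 ± 0.18 (-0.32 and not called with GC correction, -0.37 and called without ethanol replicate 1, 0.06 without ethanol replicate 2). Pkm, for pyruvate kinase, had 2677 and 2826 CPM with tamoxifen, against 1995 and 2544 CPM with ethanol (0.28 ± 0.17; -0.21 with GC correction; 0.47 and called without ethanol replicate 2). Gapdh had 509 and 443 CPM with tamoxifen, against 569 and 367 CPM with ethanol, so its groups overlapped (0.03 ± 0.20; -0.37 with GC correction, -0.08 without tamoxifen replicate 1, -0.25 without ethanol replicate 2, none of them called). Its count is uncertain, with 74 pseudogenes at 95% identity or more. Of these, Gm12070 (99.9% over 1002 bases) was counted apart, with 3581 and 4772 reads with tamoxifen, against 3208 and 5235 with ethanol. Pkm, Tpi1 and Pgam1 each have 1 such pseudogene, not among the counted symbols.

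Upstream of the pathway, Slc2a1 and Slc2a3 encode the glucose carriers GLUT1 and GLUT3. Slc2a3 had 1668 and 1616 CPM with tamoxifen, against 1221 and 1420.3 CPM with ethanol (0.31 ± 0.16, edgeR adjusted p = 0.120; called without ethanol replicate 2, 0.43, and with total counts, 0.44), and Slc2a1 723 and 534 CPM with tamoxifen, against 759 and 682 CPM with ethanol (-0.20 ± 0.18, adjusted p = 0.380; -0.42 and not called with GC correction, adjusted p = 0.0858). Neither was called in the fit of all libraries. Of the 4 glucose transporters tested, 1 was called higher, the intracellular Slc2a8 (0.64; -0.05 with GC correction), and none lower (0 at an unadjusted p under 0.05 and 0 by DESeq2). With GC correction 0 of the 4 were called in either direction (1 higher and 1 lower at an unadjusted p under 0.05), and their median was -0.20, against 0.16 without it. The Slc2a8 call ended without tamoxifen replicate 1 (0.68), without tamoxifen replicate 2 (0.59) and in DESeq2 (0.63). Without tamoxifen replicate 2, Slc2a1 was at 0.01.

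Around phosphofructokinase, bifunctional enzymes set the level of its activator fructose 2,6-bisphosphate, and among their genes Pfkfb2 was called lower and Pfkfb4 higher. The most abundant of them in CPM, Pfkfb3, had 49.8 and 53.3 CPM with tamoxifen, against 44.6 and 57.6 CPM with ethanol, so its groups overlapped (0.01 ± 0.16, edgeR adjusted p = 0.970), and Pfkfb1 was not called (-0.35, adjusted p = 0.104; -0.15 with GC correction). Pfkfb2 fell to 12.7 ± 2.07 CPM in tamoxifen cells, against 24.7 ± 0.923 CPM in ethanol cells (SD, n = 2 each), and Pfkfb4 rose to 4.27 ± 0.537 CPM, against 1.75 ± 0.0785 CPM. Their log2 fold changes were -0.95 ± 0.17 and 1.28 ± 0.26 (SE; edgeR adjusted p = 0.00115 and 0.00204), and both stayed called with GC correction and without any 1 library. With Tigar, a bisphosphatase gene (0.40; not called without tamoxifen replicate 1, 0.41, tamoxifen replicate 2, 0.39, or ethanol replicate 1, 0.32, nor in DESeq2, 0.39), 2 of the 6 tested genes of this list were higher and 1 lower.

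Downstream, pyruvate enters the mitochondrion and pyruvate dehydrogenase makes acetyl-CoA from it. Of 12 genes of this complex and its regulators, 6 were lower and 0 higher (0 higher at an unadjusted p under 0.05 and 0 by DESeq2), with a median log2 fold change of -0.39. With GC correction 3 were lower (Pdhb, Pdk4 and Pdk2) and none higher (1 higher at an unadjusted p under 0.05). The median was then -0.13. Pdk2 was at -0.54 with that correction (edgeR adjusted p = 0.0499) but at -0.12 and not called without it. Dlat (-0.49) and Pdk3 (-0.41) were called lower only without it, and were at -0.24 and -0.20 with it. Over all tested genes 22.9% were lower, and 9.78% with GC correction. Pdhb, for a subunit of the first enzyme of the complex, had 80.4 and 95 CPM with tamoxifen, against 238 and 169.7 CPM with ethanol (-1.22 ± 0.18, SE; edgeR adjusted p = 0.000418; -0.98 with GC correction). Its partner Pdha1 (-0.92; -0.58 and not called with GC correction) and Dld (-0.74; -0.07 and not called with GC correction, -0.62 and not called without tamoxifen replicate 1) were also lower. So was Pdk4 (-1.23; -0.85 with GC correction, still called), which encodes a kinase that switches the complex off. Without ethanol replicate 2, Pdha1 was at -0.60, still called.

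Lactate leaves the cell through monocarboxylate carriers. Slc16a3, for the carrier MCT4, and Bsg, for the basigin chaperone of these carriers, were called higher (0.57 and 0.52). Neither call held with GC correction (0.16 and 0.04), that of Slc16a3 ended without tamoxifen replicate 2 (0.50), and that of Bsg without tamoxifen replicate 1 (0.54) and without tamoxifen replicate 2 (0.49). Mpc1, for a subunit of the mitochondrial pyruvate carrier, had 4.32 and 4.99 CPM with tamoxifen, against 10.7 and 8.18 CPM with ethanol (-1 ± 0.21, SE; edgeR adjusted p = 0.00291; -0.62 and not called with GC correction, adjusted p = 0.0547). Slc16a1, for the carrier MCT1 and the more abundant of the pair of carriers in CPM, had 269 and 305 CPM with tamoxifen, against 253 and 325 CPM with ethanol, so its groups overlapped (-0.01 ± 0.17, edgeR adjusted p = 0.961); with GC correction it was at 0.51 and called higher (adjusted p = 0.0310). Of the 5 carriers and partners tested, 2 were higher and 1 lower, and with GC correction 1 was higher and 0 lower (1 lower at an unadjusted p under 0.05).

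The pentose phosphate branch had 2 of 8 genes higher and 1 lower, with a median log2 fold change of 0.29; with GC correction 0 were higher (2 at an unadjusted p under 0.05) and 1 lower, with a median of 0.09. Pgls (0.92) and H6pd (0.57) were higher, neither of them with GC correction (0.07 and 0.20), and H6pd was not called without tamoxifen replicate 1 (0.53). G6pdx, the entry enzyme, was lower (-0.44; -0.57 with GC correction). Its call ended without tamoxifen replicate 1 (-0.44), tamoxifen replicate 2 (-0.44) or ethanol replicate 2 (-0.30) and with the scaling by total counts (-0.32) or upper quartiles (-0.38). The 13 tested genes of gluconeogenesis and glycogen held 2 that were higher and 2 lower. Pcx, for pyruvate carboxylase, rose (1.09; 0.61 with GC correction, still called) and Pck2, for the mitochondrial PEP carboxykinase, fell (-0.90; -1.12 with GC correction), both without exception when single libraries were left out. The glycogen synthase gene Gys1 was higher (0.75; 0.41 and not called with GC correction) and Pgm1, for a phosphoglucomutase, was lower (-0.44). The Pgm1 call ended without tamoxifen replicate 1 (-0.45), tamoxifen replicate 2 (-0.43) or ethanol replicate 2 (-0.35) and with total counts (-0.31).

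Among 13 genes for known regulators of the pathway, 5 were higher and 1 lower, and with GC correction 2 were higher (Myc and Mlxipl) and 0 lower (3 lower at an unadjusted p under 0.05). Myc had 139.8 and 138 CPM with tamoxifen, against 49.9 and 31.5 CPM with ethanol (1.78 ± 0.20, SE; edgeR adjusted p = 0.000142), and Mlxipl, for the glucose-responsive factor ChREBP, 24.3 and 20.7 CPM against 13.2 and 8.76 CPM (1.05 ± 0.20, adjusted p = 0.00183; 0.65 with GC correction, still called). Hif1a had 174 and 204 CPM with tamoxifen, against 262 and 307 CPM with ethanol, and was called lower (-0.59 ± 0.16, edgeR adjusted p = 0.0104). Its transcript is GC-poor (41.3%), and with GC correction it was at 0.04 (adjusted p = 0.893); without tamoxifen replicate 1, uncorrected, it was at -0.48 and not called. Mycn (0.64; 0.36 with GC correction; 0.60 without tamoxifen replicate 1) and the oxygen sensor gene Egln2 (0.76; 0.03 with GC correction; 0.54 without tamoxifen replicate 2) were called higher, but not under any of the settings in brackets.

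**Figure D5:**
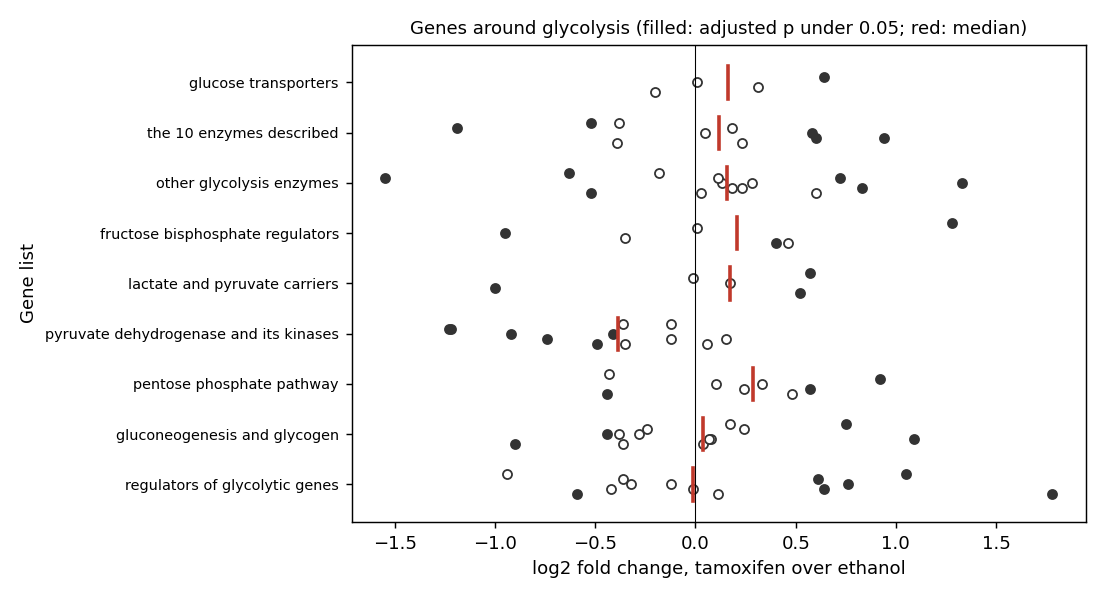
Log2 fold change, tamoxifen over ethanol and without GC correction, of each tested gene in 9 lists around glycolysis (1 point is 1 gene, spread vertically to avoid overlap; filled where the adjusted p was under 0.05; red lines are list medians). The medians lie between -0.39 for pyruvate dehydrogenase and its kinases and 0.29 for the pentose phosphate pathway, and each list except the glucose transporters and the pyruvate dehydrogenase list has called genes on both sides of 0.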

How the data were processed

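Poly(A) RNA was sequenced from 4 libraries. The authors deposited counts of reads per gene symbol, 1 file per library, with closing summary lines in HTSeq form; the submitters' processing notes list Bowtie 1.1.1, CASAVA 1.8.2, DESeq2 and HTSeq beside the mm9 build. What each tool did, the annotation, the strand setting and the handling of reads with several matches: not given in the sources used here. Reads in no gene (35.0 to 37.6% with tamoxifen, 40.8 and 51.7% with ethanol) stayed out.

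Counts were tested as deposited with edgeR 4.0.16 in R 4.3.3 (quasi-likelihood with robust dispersions, a model of group alone, TMM and filterByExpr), with Benjamini-Hochberg adjustment over 14479 genes at 0.05; each SE was obtained by dividing the size of the log2 fold change by the root of its F statistic. The procedure was tested on simulated data. The biological coefficient of variation was 12.6%. Alternatives were other scaling and filters, DESeq2 1.42.0, limma 3.58.1 voom, the replicate block, GC correction (loess, span 0.5, degree 1, as an offset), each library left out and a threshold of 0.01. Transcript GC, length and near copies (blastn 2.17.0) came from GENCODE transcripts of GRCm38, 1 per symbol, one with a RefSeq accession first, then the principal, then the longest. Of 24428 symbols, 23535 matched directly, 524 by synonym and 369 not at all; 99.4% of tested genes had a value. Replicate numbers are not said to mark a shared batch. Named genes were Smarca4, the 10 enzymes, Gapdh, Tpi1, Pgam1, Pkm, Ldhb, Slc2a1, Slc2a3, Hif1a, Myc and up to 4 called genes of smallest adjusted p per list. Dlat, Eno1b, Gm12070, Lum, Pdk2, Pdk3, Pfkfb1, Pfkfb3 and Slc16a1 were named after their values were seen. Members and lists were chosen with earlier results of these data known.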

Additional observations from a re-analysis of the deposited data

How the results depend on the processing

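Members' calls and the median (3 higher, 2 lower, 0.11; 6441 of all genes called) moved as follows. GC correction called 2837 genes, 0 enzymes higher, and gave a median of -0.23. A threshold of 0.01 called 3806 genes and 1 enzyme lower. Total counts gave a median of 0.24, while shifting the median of all genes to 0.12, and turned the share of higher calls among all called genes to 61.8%, against 48.4%. Summing Eno1 with Eno1b, chosen after seeing the data, gave -0.03 for Eno1 and a median of 0.01. The replicate numbers are not known to pair the libraries (correlation of replicate deviations between the groups 0.23, from 2 pairs); with the replicate block 8087 genes and 4 enzymes lower were called, and with the block and GC correction 4967 genes, 2 enzymes higher (Gpi1 at 0.39 and Eno1 at 0.51, whose calls GC correction alone ended), 4 lower and a median of -0.23. The block also called Hk2 (-0.36), Ldha (-0.39), Pkm (0.29) and Slc2a3 (0.32), and with GC correction Hk2 (-0.43), Ldha (-0.46), Slc2a3 (0.43), Slc2a1 (-0.44), Pgam1 (-0.31) and Gapdh (-0.36), and it kept the calls of Mpc1 (-0.61), Pdha1 (-0.57), Gys1 (0.41) and Mycn (0.36), which GC correction alone ended. Leaving out 1 library, with and without GC correction, gave 698 to 7326 genes called, 0 to 3 enzymes higher, 1 to 4 lower and medians from -0.29 to 0.15; where a group kept 1 library, it was assumed to vary like the other group. The cause of these shifts was not tested. Pfkp was called in all 19 alternatives. The differences in isoform share kept their sign per kilobase of transcript and without any 1 library, but no share was computed with GC correction. Directions turned with GC correction, without and with the block, for Hk1 (-0.14 both times), Pfkm (-0.23), Aldoa (-0.23), Gapdh (-0.37 and -0.36), Tpi1 (-0.08 and -0.07), Pkm (-0.21 and -0.19), Hif1a (0.04 and 0.03) and Slc2a8 (-0.05), and with total counts for Eno1b (0.05). Leaving out 1 library, with or without GC correction, turned at least 1 value for Hk1 (-0.27 to 0.27), Pfkl (-0.02 to 0.74), Pfkm (-0.31 to 0.09), Aldoa (-0.30 to 0.30), Gapdh (-0.60 to 0.38), Tpi1 (-0.24 to 0.24), Pgam1 (-0.56 to 0.06), Pkm (-0.44 to 0.47), Slc2a1 (-0.66 to 0.01), Hif1a (-0.71 to 0.11), Slc2a8 (-0.08 to 0.70), Bsg (-0.02 to 0.54), Dld (-0.92 to 0.08), Pgls (-0.02 to 1.09) and Egln2 (-0.16 to 0.94), ranges over those fits.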
